A study of Mus musculus with 6 samples.

Results

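The genes described here encode the chaperones of the cytosol and mitochondria, together with their co-chaperones and the heat shock factors. They were chosen by gene symbol, namely the HSP70 and HSP110 (Hspa, Hsph1), HSP90 (Hsp90a, Trap1), small heat shock protein (Hspb), mitochondrial chaperonin (Hspd1, Hspe1), CCT (Tcp1, Cct2 to Cct8), J protein (Dnaj), BAG (Bag1 to Bag6) and heat shock factor (Hsf1, Hsf2) families, without Hspa5, Dnajb9, Dnajb11, Dnajc3 and Dnajc10 of the endoplasmic reticulum (ER). Of 10245 genes measured, 63 met this rule, which reads only the symbols but was written with earlier results of these data known. The symbols reach further than the cytosol and mitochondria. By their known sites, 40 of the 63 were assigned to the cytosol and 11 to mitochondria. The other 12, among them Dnajc22, Dnajc13, Hspa13 and Dnajc8, were assigned to the ER, other membranes or elsewhere.

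RNA of whole pancreas was sequenced from 3 control mice, Ptf1a(CreER/+), and 3 Ptf1a conditional knockout (cKO) mice, Ptf1a(CreER/fl), on day 14 after the first of 3 doses of tamoxifen, each of 0.25 mg/g by gavage. CreER sits in the endogenous Ptf1a gene and replaces its product, so the control mice were heterozygous for Ptf1a, both groups carried CreER and both received tamoxifen, and recombination takes place in acinar cells, the cells that make the digestive enzymes, and not in all of them. The mice of the study with an inducible Cre also carried a Cre-dependent EYFP reporter. Each group held 1 male and 2 females. The control mice were 4 months and the Ptf1a cKO mice 5 months old, so age and genotype cannot be told apart.

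Chaperones bind unfolded stretches of other proteins and release them in cycles that are driven by ATP. HSP70 proteins receive their clients from J proteins, which stimulate their ATPase, and are reset by nucleotide exchange factors of the HSP110 and BAG families. HSP90 acts later on near-native clients, the ring-shaped chaperonins (CCT in the cytosol, HSP60 with HSP10 in mitochondria) enclose their clients, and small heat shock proteins hold unfolded proteins without ATP. HSF1 is the transcription factor that induces many of these genes in stressed cells, and acinar cells are known for a very large load of protein synthesis, most of it folded in the ER.

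HSF1 and HSF2 bind the heat shock element, a run of GAA units that alternate in orientation at a spacing of 5 bases, so that adjacent units read GAANNTTC or TTCNNGAA. RefSeq (build GRCm38.p6) gave a promoter window, from 250 bases before to 50 bases after an annotated start, for 48 of the 63 genes. The 15 genes without a window, among them Hspa8, Hsp90aa1, Hsp90ab1 and Hspa9, were not searched. Of the genes called below, 5 of the 9 higher and 9 of the 12 lower have a window. Both letter strings are their own reverse complement and were searched on both strands. An adjacent pair was present in 13 of the 48 genes (27.1%) and in 4587 of 27025 genes with a window (17.0%). By call, a pair was present in 1 of the 5 higher genes, 4 of the 9 lower genes and 8 of the 34 that did not pass. These groups are small, and a difference between them was not tested. A run of 3 units was present in 4 of the 48 (8.33%, Dnajb6, Hspd1, Hspe1 and Hsph1) and in 0.662% of all genes. A run of 4 units was present in Hspd1 and Hspe1 and in 0.0296% of all genes. The matches are described as letters only, and no binding was measured.

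The runs of 3 or 4 units, and the matches of the 4 genes that were called lower and hold any match (Hspd1, Hspb1, Hspb8 and Cct5), are printed below from 5′ to 3′ on the strand of each gene, with the GAA and TTC units in capitals. The other pairs are not printed. They lie in Hsph1, called higher, and in Bag3, Cct2, Cct6a, Dnaja1, Dnaja4 and Dnajb4, which did not pass. Hspd1 and Hspe1 are divergent neighbours, and the first 2 lines are the same 30 bases of chr1:55088053-55088082 read on their 2 strands, with the element 144 bases before the start of Hspd1 and 89 bases before that of Hspe1. The Hsph1 run (chr5:149636280-149636309, minus strand) begins 16 bases into the transcript from 1 annotated start and 37 bases from another. The Dnajb6 run (chr5:29735843-29735872, plus strand) begins 46 bases before the start. Hspb1 has 2 separate pairs (chr5:135887791-135887820 and chr5:135887811-135887840, plus strand), Hspb8 has 1 at base 3 of the transcript (chr5:116422844-116422873, minus strand), and Cct5 has 1 that begins 34 bases before its start (chr15:31601862-31601891, minus strand).
Hspd1: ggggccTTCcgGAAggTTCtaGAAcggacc
Hspe1: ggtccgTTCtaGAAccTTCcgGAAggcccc
Hsph1: tgctgcagaTTCtgGAAagTTCtcctcagt
Dnajb6: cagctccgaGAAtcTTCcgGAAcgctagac
Hspb1, first pair: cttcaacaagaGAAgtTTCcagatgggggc
Hspb1, second pair: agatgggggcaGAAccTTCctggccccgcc
Hspb8: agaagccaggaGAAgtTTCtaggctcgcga
Cct5: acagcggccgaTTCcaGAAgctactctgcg

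Levels are given as normalized counts, which are reads per gene that the authors scaled to be comparable across the 6 libraries. Ptf1a itself was at 606 ± 42.9 normalized counts in control pancreas and at 33.4 ± 32.1 in that of Ptf1a cKO mice (SD, n = 3), a log2 fold change of -4.41. The listed digestive enzymes and secreted acinar proteins summed to 14056300 to 17235700 normalized counts per control library and to 2091680 to 5670530 per Ptf1a cKO library, with 22 of 34 lower and 4 higher on the authors' scale, all 34 above 0 in every library. The sums of the listed markers of other cells ranged from 5923 to 6661 in control and from 28807 to 112614 in Ptf1a cKO pancreas for ductal cells (8 of 12 genes higher, 0 lower), from 3747 to 4494 and from 7029 to 13104 for fibroblasts and stellate cells (11 of 12 higher, 0 lower), from 1146 to 2206 and from 2404 to 7698 for leukocytes (10 of 13 higher, 0 lower), from 330.4 to 375 and from 386 to 689 for smooth muscle (3 of 7 higher, 1 lower), and from 169.8 to 427 and from 321 to 1293 for fat (1 of 5 higher, 0 lower). Endothelial sums overlapped, at 1115 to 1350.1 and 1150 to 1418 (1 of 10 higher, 0 lower), as did endocrine sums, at 11837 to 43760 and 6036 to 34523 (0 of 11 called). These counts use the threshold given below, an adjusted p under 0.05, at which 17.1% of all genes were higher and 16.8% lower. The part of these shifts in the results below was not tested, and in whole tissue fewer cells of a type and less RNA per cell cannot be told apart.

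Most differences of the chaperone genes were small, and they went in both directions. At an adjusted p under 0.05 (limma, two-sided, adjusted over all genes), 9 of the 63 were higher in Ptf1a cKO pancreas (17.1% of all genes were), 12 were lower (16.8% of all genes) and 42 did not pass. The count of lower genes was 3 without control 1, 7 without control 2 and 5 without cKO 3, and it was 2 at an adjusted p under 0.01. The 21 called genes are 33.3% of the chaperone genes, next to 33.9% of all genes. The groups did not overlap for 31 of the 63 (49.2%), 15 of them higher (26.5% of all genes were) and 16 lower (24.3% of all genes), next to 50.8% of all genes in either direction. The median size of the log2 fold change, in either direction, was 0.19 over the chaperone genes and 0.33 over all genes, and 2 of the 63 (3.17%), Dnajc22 and Hspb1, changed by 2-fold or more, while 12.4% of all genes did. The log2 fold changes had a median of -0.04 over the chaperone genes and of 0.04 over all genes. These directions rest on the authors' scaling, which holds the median gene nearly level. When all libraries were given an equal total, the median of all genes moved to 1.48, and 61 of the 63 genes were called higher and 0 lower. With the same total reached without the digestive enzymes the median of all genes was 0.21, and 16 were higher and 3 lower. A change of scaling shifts nearly all genes alike, so the 9 higher genes stay above the median of all genes and the 12 lower genes below it by construction. In what follows, "lower" means lower relative to the median gene.

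The summed level of the 63 genes was 17513, 18483 and 17965 normalized counts in the 3 control libraries and 18313, 18456 and 17724 in the 3 Ptf1a cKO libraries, and the groups overlapped. The same sums were between 0.0827% and 0.100% of all gene counts in control and between 0.206% and 0.321% in Ptf1a cKO libraries, whose gene totals were lower. Single values ran from 15.1 to 3151 normalized counts, and no chaperone gene was at 0 in a library. Between the mice of a group the median coefficient of variation was 10.4% in control and 7.48% in Ptf1a cKO, against 12.2% and 12.3% over all genes. Per kilobase of the longest coding transcript, over the 50 genes that share less than 10% of their sequence with another gene, control levels were highest for Hsp90ab1 (796 normalized counts per kb), Cct5 (655) and Bag1 (566), followed by Cct2 (372), Cct7 (370.0) and Hspa9 (368).

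**Figure D1:**
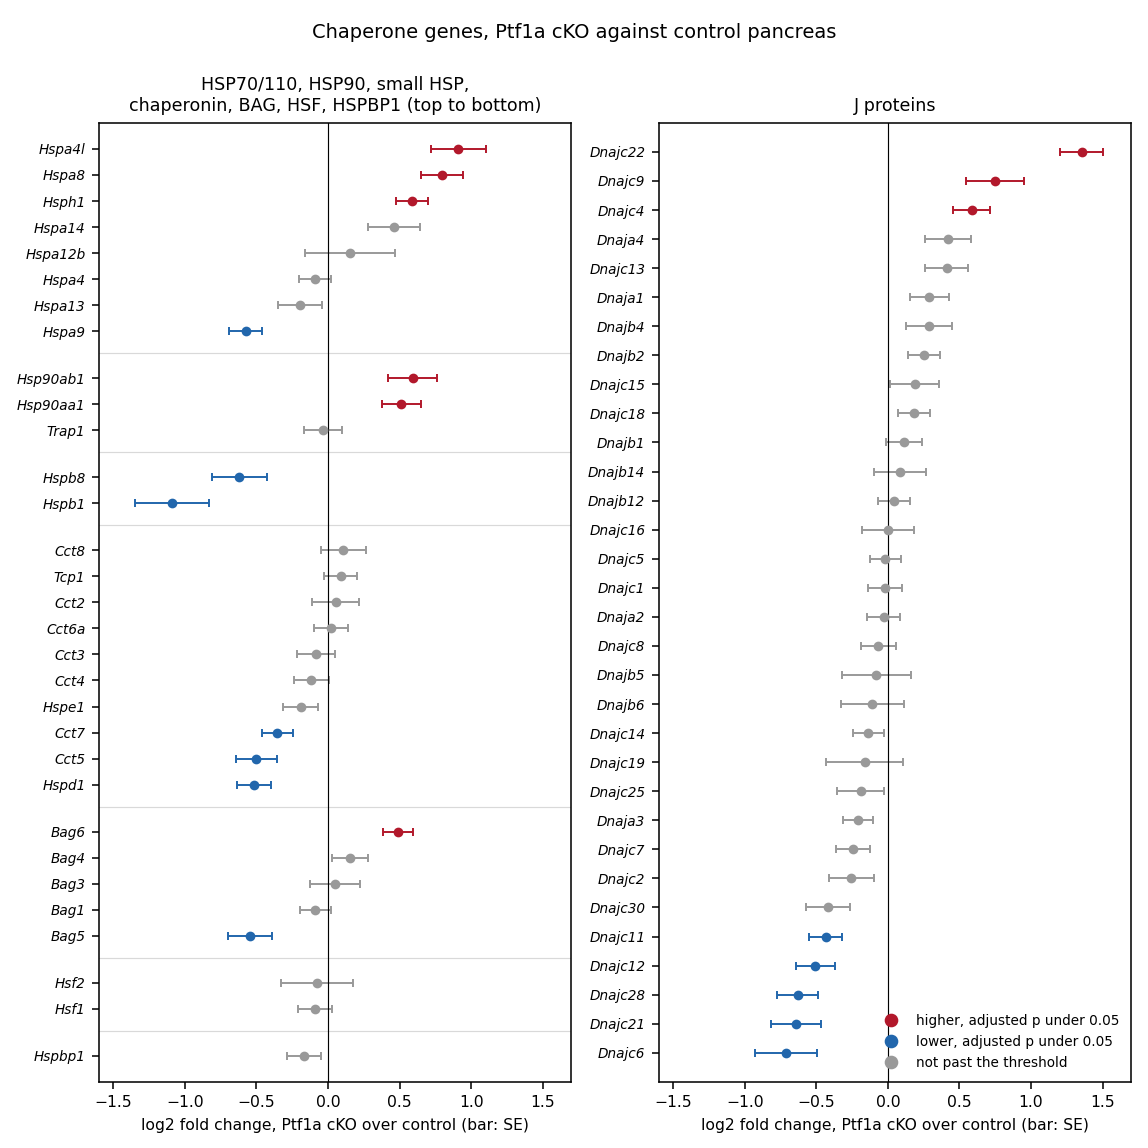
Log2 fold change (Ptf1a cKO over control, n = 3 mice each, bar: standard error of the limma fit) of each of the 63 chaperone genes, J proteins on the right and the other families on the left. The 9 genes in red passed an adjusted p under 0.05 as higher and the 12 in blue as lower on the authors' scale (the 12 lie above 0 if every library is set to the same total).

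Of the 8 HSP70 and HSP110 genes 3 were higher, all of them cytosolic, and 1 was lower, the mitochondrial Hspa9. These 4 are 50% of the class, next to 33.9% of all genes, and a difference between compartments was not tested. Hspa8, the constitutive cytosolic HSP70 (HSC70), rose. Its values were 220.2, 223 and 309 normalized counts in control and 409, 444 and 447 in Ptf1a cKO. The lowest Ptf1a cKO library exceeded the highest control library, and the log2 fold change was 0.80 (SE 0.15, adjusted p = 0.00352). Hsph1, the HSP110 nucleotide exchange factor of HSC70, stood at 173, 163 and 195 in control and at 259.7, 275 and 264 in Ptf1a cKO, an increase of 0.59 (SE 0.11, adjusted p = 0.00439). The 3 Ptf1a cKO libraries were close together and all above the control libraries. Hspa4l, another HSP110, was at 31.3, 33.7 and 32.9 in control and 52.0, 79.1 and 64.8 in Ptf1a cKO (0.91, SE 0.19, adjusted p = 0.00705), from a low level in every control library. Hspa4, the third HSP110 gene, was at 669, 670.4 and 581 in control and 584, 623 and 594 in Ptf1a cKO. These groups overlapped and the difference did not pass (-0.09, SE 0.11, adjusted p = 0.554).

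Hspa9, the HSP70 of the mitochondrial matrix that pulls in and folds imported proteins, fell on the authors' scale (0.92 with every library set to the same total). It was at 1043, 1245 and 1073 normalized counts in control and at 759, 756 and 729.8 in Ptf1a cKO, with no overlap and a log2 fold change of -0.58 (SE 0.11, adjusted p = 0.00506). Hspa14, which works with Dnajc2 on the ribosome, was at 59.2, 75.3 and 46.3 against 79.5, 83.2 and 85.7 and did not pass (0.46, SE 0.18, adjusted p = 0.0755), although its groups did not overlap. Hspa12b and Hspa13 differed by 0.15 and -0.19 and did not pass. Hspa8, Hsph1, Hspa4l and Hspa9 each kept their call with any 1 of the 6 libraries left out. The stress-induced cytosolic HSP70 genes Hspa1a and Hspa1b were not analysed here.

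Because Hspa8 and Hspa9 moved in opposite directions, their ratio within a library was computed after these values had been seen. It does not depend on how the libraries were scaled. It was 0.211, 0.179 and 0.288 in control and 0.539, 0.587 and 0.612 in Ptf1a cKO, so its mean was 2.56 times as high in Ptf1a cKO and the groups lay well apart. The ratio of Hsph1 to Hspa4 was 0.258, 0.243 and 0.335 in control and 0.445, 0.442 and 0.445 in Ptf1a cKO, where the 3 mice were nearly alike. All ratios given here and below are of pairs chosen after the values had been seen. Each exact permutation test of 3 against 3 libraries has 0.10 as its smallest p, which 31 of the 63 genes reached on their own values.

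**Figure D2:**
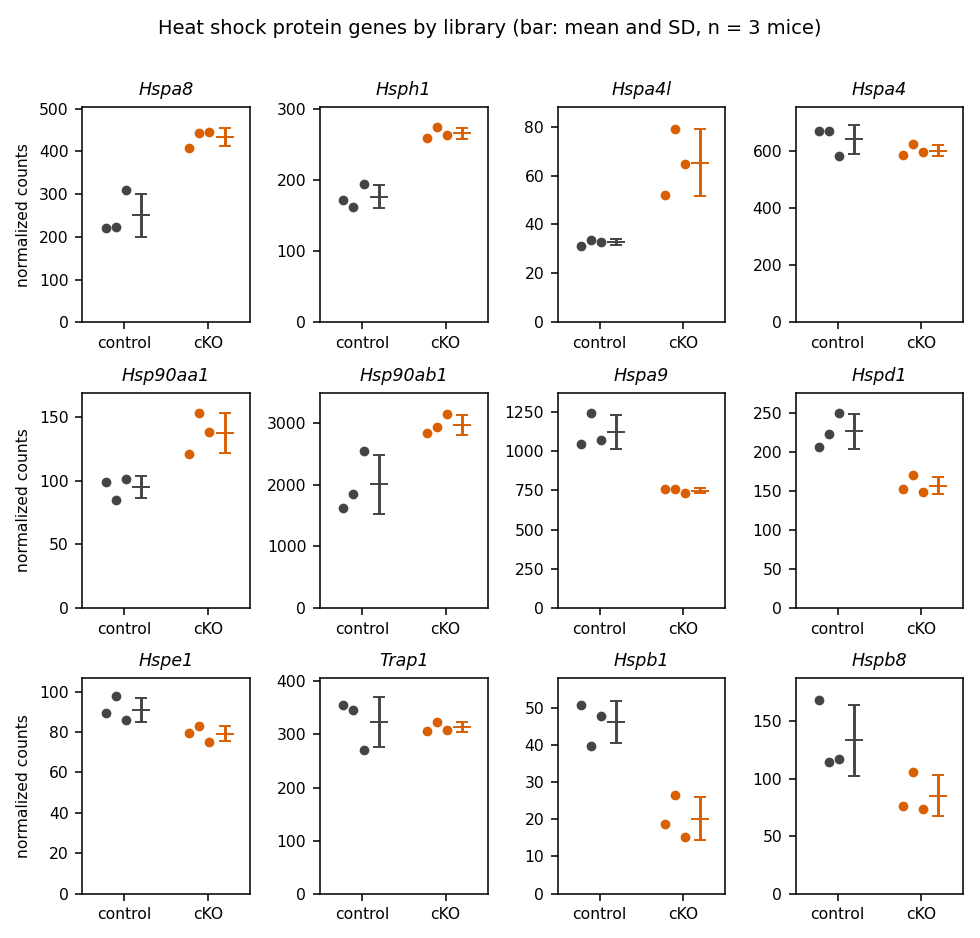
Normalized counts of 12 heat shock protein genes in each library (points, 3 control and 3 Ptf1a cKO mice) with the mean and SD of each group; every axis starts at 0. Hspa8, Hsph1, Hspa4l, Hsp90aa1 and Hsp90ab1 lie higher in Ptf1a cKO, while Hspa9, Hspd1, Hspe1, Hspb1 and Hspb8 lie lower without overlap on the authors' scale, and Hspa4 and Trap1 overlap. With every library set to the same total, Hspa9, Hspd1, Hspe1 and Hspb8 are higher, and Hspb1 is above 0 but does not pass.

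Both cytosolic HSP90 genes rose and the mitochondrial member did not pass. Hsp90ab1, the constitutive form, was at 1626, 1849.9 and 2540.4 normalized counts in control and at 2832, 2930.0 and 3151 in Ptf1a cKO (0.59, SE 0.17, adjusted p = 0.0267). All Ptf1a cKO libraries were above control 3, the highest of the control libraries, which themselves were spread widely. The call was lost without control 1, control 2, cKO 1 or cKO 3 (adjusted p from 0.0542 to 0.116). Hsp90aa1, the stress-inducible form, was at 99.5, 85.2 and 101 against 121, 153 and 138, without overlap (0.51, SE 0.14, adjusted p = 0.0185), and lost its call without control 2, cKO 2 or cKO 3 (adjusted p from 0.0536 to 0.0711). Trap1, the mitochondrial HSP90, was at 356, 346 and 269.9 in control and 307, 324 and 309 in Ptf1a cKO. The Trap1 groups overlapped, with a difference of -0.04 (SE 0.13, adjusted p = 0.852). The ratio of Hsp90ab1 to Trap1 within a library was 4.56, 5.35 and 9.41 in control and 9.21, 9.03 and 10.2 in Ptf1a cKO, and control 3 lay within the range of the Ptf1a cKO libraries. The ratio of Hsp90ab1 to Hsp90aa1 overlapped as well, at 16.4, 21.7 and 25.0 against 23.3, 19.1 and 22.8.

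Both small heat shock protein genes fell on the authors' scale. With every library set to the same total, Hspb8 lay higher, and Hspb1 was above 0 but did not pass (0.24, adjusted p = 0.5625). Hspb1 (HSP25 in the mouse), which holds unfolded proteins and acts on actin filaments, was at 50.8, 39.8 and 47.7 normalized counts in control and 18.8, 26.6 and 15.1 in Ptf1a cKO. Its decrease was the largest among the 63 genes, at -1.09 (SE 0.26, adjusted p = 0.0115), with no overlap of the groups, and it did not pass without control 1 (adjusted p = 0.0595). Hspb8, the partner of Bag3 in the autophagy of damaged proteins, was at 169, 114 and 117 in control and 76.0, 106 and 73.9 in Ptf1a cKO (-0.62, SE 0.19, adjusted p = 0.0342). Here the highest Ptf1a cKO value lay just under the lowest control values, and the call was lost without control 1, cKO 1 or cKO 3 (adjusted p from 0.101 to 0.118). Cryab, a small heat shock protein whose symbol does not meet the rule, was at 330.2, 328 and 428 against 110.2, 119 and 102 (-1.68, SE 0.14, adjusted p = 8.87e-05).

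The mitochondrial chaperonin genes share a promoter region and differed in how far they lay below control. Hspd1, which encodes HSP60, was at 206, 222 and 250.4 normalized counts in control and 152, 169.9 and 148 in Ptf1a cKO, and fell by 0.52 on the log2 scale (SE 0.12, adjusted p = 0.0109), a call kept with any 1 library left out. At an equal total in every library, Hspd1 lay 0.95 above control on that scale. Hspe1, which encodes its lid HSP10, was at 89.2, 97.7 and 86.1 against 79.4, 82.9 and 75.3. The Hspe1 groups did not overlap either, but the difference of -0.19 did not pass (SE 0.13, adjusted p = 0.260). The ratio of Hspd1 to Hspe1 was 2.31, 2.28 and 2.91 in control and 1.92, 2.05 and 1.97 in Ptf1a cKO, lower in each Ptf1a cKO library. Both genes stand on either side of the 4-unit element printed above.

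Of the 8 subunits of the CCT ring, which folds actin and tubulin, 2 fell on the authors' scale and 6 did not pass. The share called was 25%, next to 33.9% of all genes. All 8 lay higher with every library set to the same total. Cct5 was at 1235, 1342 and 1065 normalized counts in control and 919, 931 and 727 in Ptf1a cKO (-0.50, SE 0.14, adjusted p = 0.0248), without overlap. Cct7 was at 849, 942 and 919 against 757, 694 and 668, again without overlap (-0.35, SE 0.11, adjusted p = 0.0347). Tcp1, the first subunit, was at 601, 685 and 600.3 in control and 705, 681 and 618 in Ptf1a cKO (0.09, SE 0.11, adjusted p = 0.581), and the 6 subunits that did not pass lay between -0.12 and 0.11 with overlapping groups. The Cct5 to Tcp1 ratio, independent of the scaling, was 2.06, 1.96 and 1.78 in control and 1.30, 1.37 and 1.18 in Ptf1a cKO. This pair was chosen after the values had been seen, so the ratio only restates that these 2 genes changed unequally. Cct5 and Cct7 were named after their values were seen. Cct5 lost its call without control 1, control 2 or cKO 3 (adjusted p from 0.0689 to 0.101), and Cct7 with any library but cKO 1 left out (adjusted p from 0.0587 to 0.125).

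**Figure D3:**
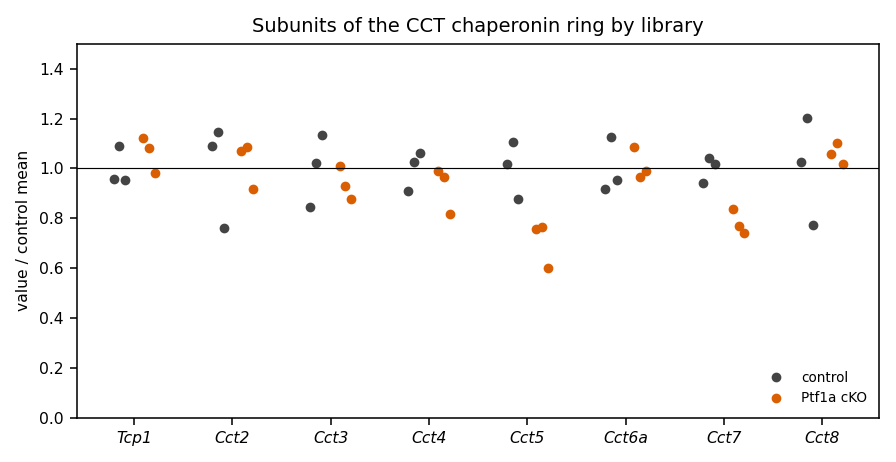
Each library's normalized count of the 8 CCT subunit genes divided by that gene's control mean (points, 3 control and 3 Ptf1a cKO mice; line at 1). Cct5 and Cct7 lie below the control libraries in every Ptf1a cKO library on the authors' scale (above them with every library set to the same total), and the other 6 subunits overlap.

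The J proteins, which select clients for HSP70, held 3 higher and 5 lower genes among 32 (25% called, next to 33.9% of all genes). The 8 were in the diverse C class of 21 genes (38.1%), and the difference between the classes was not tested. None of the 4 genes of class A and the 7 of class B, the general-purpose HSP40 types, passed. The largest rise of all 63 genes was in Dnajc22, a J protein with several membrane-spanning segments, at 44.0, 37.4 and 49.8 normalized counts in control and 119, 107 and 123 in Ptf1a cKO (1.36, SE 0.15, adjusted p = 3.31e-04). Every Ptf1a cKO library was at more than 2 times the level of every control library. Dnajc9, a J protein that also binds histones, was at 37.0, 40.6 and 26.6 against 55.4, 56.8 and 67.6 (0.75, SE 0.20, adjusted p = 0.0208), and did not pass without cKO 3 (adjusted p = 0.0720). Dnajc4, assigned to mitochondria, was at 80.1, 98.7 and 84.7 in control and 145, 128 and 126 in Ptf1a cKO (0.59, SE 0.13, adjusted p = 0.00875), and was the only mitochondrial gene of the 11 called higher.

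Of the J proteins that fell on the authors' scale, all 5 were above 0 with every library set to the same total, where Dnajc6 did not pass. Among these 5, Dnajc6, the auxilin that brings HSC70 to clathrin coats, was at 47.4, 46.5 and 39.3 normalized counts in control and 23.9, 22.9 and 30.9 in Ptf1a cKO (-0.71, SE 0.22, adjusted p = 0.0320). Dnajc21, which takes part in the maturation of the large ribosomal subunit, was at 237, 253 and 168 against 154, 142 and 119 (-0.64, SE 0.17, adjusted p = 0.0200). In both the groups were apart, for Dnajc21 by the short distance between control 3 and cKO 1. Dnajc6 lost its call without control 1, control 2, cKO 1 or cKO 2 (adjusted p from 0.0629 to 0.114) and Dnajc21 without control 1, control 2 or cKO 3 (adjusted p from 0.0680 to 0.0778). Dnajc28, a small mitochondrial J protein, was at 85.7, 88.4 and 78.7 in control and 59.3, 51.6 and 49.1 in Ptf1a cKO (-0.63, SE 0.14, adjusted p = 0.00932), and kept its call with any 1 library left out. Dnajc12, which binds the aromatic amino acid hydroxylases, and Dnajc11, which is tied to the cristae of mitochondria, were named after their values were seen, with log2 fold changes of -0.51 (adjusted p = 0.0210) and -0.44 (adjusted p = 0.0193). The call of Dnajc12 was lost without control 1, control 3, cKO 2 or cKO 3 (adjusted p from 0.0509 to 0.0721) and that of Dnajc11 without control 1, cKO 1 or cKO 3 (adjusted p from 0.0572 to 0.0769).

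The stress-inducible J proteins of the cytosol did not pass. Dnajb1, the HSP40 that acts with HSC70, was at 98.5, 93.3 and 113 normalized counts in control and 112, 104 and 115 in Ptf1a cKO (0.11, SE 0.13, adjusted p = 0.508). Dnaja1, another partner of HSC70, was at 68.4, 75.6 and 78.2 against 88.7, 102 and 84.0, apart but short of the threshold (0.29, SE 0.14, adjusted p = 0.124). The ratio of Hspa8 to Dnajb1 was 2.24, 2.39 and 2.73 in control and 3.67, 4.27 and 3.88 in Ptf1a cKO, so Hspa8 and Dnajb1 moved unequally within the libraries. In all, 5 J proteins had groups that did not overlap, with higher values in Ptf1a cKO, without passing the threshold (Dnaja4 0.42, Dnajc13 0.41, Dnaja1, Dnajb2 0.25 and Dnajc18 0.19), and 3 had such groups with lower values (Dnajc30 -0.42, Dnajc7 -0.24 and Dnaja3 -0.21). With the 8 called J proteins, the groups of 16 of the 32 (50%) did not overlap, next to 50.8% of all genes.

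**Figure D4:**
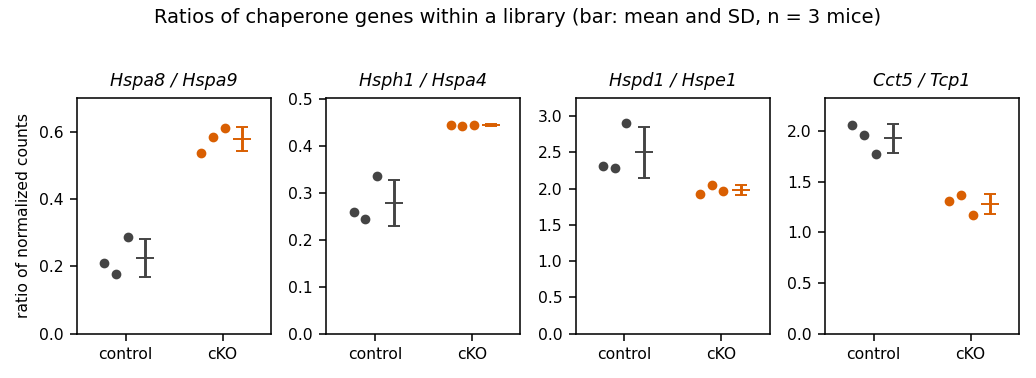
Ratios between pairs of chaperone genes, chosen after the values had been seen, within each library (points, 3 control and 3 Ptf1a cKO mice, with mean and SD). The ratios do not change with the scaling of the libraries. Hspa8 over Hspa9 and Hsph1 over Hspa4 lie above all control libraries in the 3 Ptf1a cKO libraries, and Hspd1 over Hspe1 and Cct5 over Tcp1 lie lower.

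The BAG genes, which reset HSP70 or link it to other pathways, held 1 higher and 1 lower gene among 5 (40% called, next to 33.9% of all genes). Bag6, which guards newly made membrane proteins in the cytosol and was named after its values were seen, was at 538, 509.9 and 522 normalized counts in control and 732, 697 and 784 in Ptf1a cKO (0.49, SE 0.10, adjusted p = 0.00733), far apart and with little spread in control. Bag5 was at 190.0, 207 and 203 against 150.0, 157 and 107 (-0.54, SE 0.15, adjusted p = 0.0243, higher with every library set to the same total), and lost its call without control 1, control 2, control 3 or cKO 3 (adjusted p from 0.0559 to 0.0779). Bag3, which heat shock induces, was at 183, 170.2 and 227 in control and 205, 242 and 159 in Ptf1a cKO. Its groups overlapped widely (0.05, SE 0.17, adjusted p = 0.842), and Bag1 and Bag4 did not pass either (-0.09 and 0.16).

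Neither heat shock factor gene passed. Hsf1 was at 186, 193 and 158 normalized counts in control and 169.8, 172 and 160.3 in Ptf1a cKO (-0.09, SE 0.12, adjusted p = 0.587). Hsf2 was at 41.9, 50.0 and 56.9 against 52.5, 31.1 and 61.3 (-0.07, SE 0.25, adjusted p = 0.840). Both overlapped, and their RNA does not measure the activity of the factors. In a list of 23 genes known to be induced by heat shock, of which 21 were measured and 12 are among the 63, 6 were higher and 4 lower (47.6% called, next to 33.9% of all genes). Over the 9 outside the 63 the share was 33.3%. Outside the 63, Chordc1 was higher (0.42, adjusted p = 0.0160), and Cryab was lower, while Stip1, Ahsa1, Fkbp4, Serpinh1, Hmox1 and Ubb did not pass.

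By compartment, 7 of the 40 cytosolic genes were higher and 8 lower, and the median of their log2 fold changes was -0.003. The share called was 37.5%, next to 33.9% of all genes. Of the 11 mitochondrial genes 1 was higher and 4 (Hspa9, Hspd1, Dnajc28, Dnajc11) lower (45.5% called, next to 33.9% of all genes). The median of the 11 was -0.21. The sum of the 11 was 2635, 2839 and 2554 normalized counts in control against 2138, 2151 and 2027 in Ptf1a cKO, without overlap. Hspa9, the largest of the 11, had means of 1120 in control and 748 in Ptf1a cKO within this sum. As a share of all gene counts, the sum of the 11 was higher in Ptf1a cKO (0.02395% to 0.0367%) than in control (0.0124% to 0.0142%). With every library set to the same total the 4 lower genes lay higher. A list of 18 other genes for mitochondrial protein import, proteases and iron-sulfur assembly, of which 16 were measured, had 1 higher (the protease subunit Spg7, 0.82, adjusted p = 0.00169) and 5 lower on the authors' scale, a share of 37.5% next to 33.9% of all genes. The lower genes were the protease Htra2 (-1.29, adjusted p = 0.00169), the scaffold Iscu (-0.57, adjusted p = 0.0106), Grpel2 (-0.51, adjusted p = 0.0250), an exchange factor of Hspa9, its anchor at the import channel Timm44 (-0.43, adjusted p = 0.0198), and the protease subunit Afg3l2 (-0.37, adjusted p = 0.0310). Grpel1, also on the list, overlapped and did not pass (-0.26, adjusted p = 0.208). The median of these 16 was -0.22, and 14 of them were below 0.

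Other co-chaperones of HSP70 and HSP90 went in both directions. Of 28 measured genes of a list of 30, without Hspbp1, which is among the 63, 3 were higher (Chordc1, Sugt1 0.41 and Unc45a 0.39, all known to bind HSP90) and 2 lower, among them Ttc1 (-0.44). Those 5 are 17.9% of the list, next to 33.9% of all genes. Hspbp1 itself was at -0.17 and did not pass. Prefoldin, which hands actin and tubulin to CCT, and the tubulin cofactors were listed together with phosducin-like genes (15 of 16 measured, 26.7% of them called, next to 33.9% of all genes). The tubulin cofactor Tbcb was higher (0.40, adjusted p = 0.0459). The tubulin cofactor Tbcc (-0.81, adjusted p = 0.00594) and the phosducin-like genes Pdcl3 (-0.80, adjusted p = 0.00229) and Pdcl (-0.42, adjusted p = 0.0241), which bind CCT, were lower on the authors' scale, and the prefoldin genes did not pass.

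The 5 ER chaperone genes that the rule left out moved differently among themselves. Hspa5 (BiP), the HSP70 of the ER, was at 7087, 7069 and 7424 normalized counts in control and 6135, 7697 and 4996 in Ptf1a cKO, with overlap (-0.22, SE 0.18, adjusted p = 0.373). The ER J proteins Dnajc3 (-0.62, adjusted p = 0.00639), Dnajb11 (-0.62, adjusted p = 0.00873) and Dnajb9 (-0.57, adjusted p = 0.0355) were lower on the authors' scale, and Dnajc10 was higher (0.47, adjusted p = 0.0158). Of the genes named here from outside the 63, 19 passed the threshold, and 13 of them were lower on the authors' scale. Of these 13, 12 lay higher with every library set to the same total, and Cryab lay lower there too (-0.20). Cryab, Tbcc, Pdcl3, Spg7, Htra2, Iscu, Dnajc3 and Dnajb11 kept their call with any 1 library left out, and the other 11 lost it in at least 1 such fit, with adjusted p-values up to 0.145. The wider list of 27 ER chaperones and folding enzymes had 4 higher and 9 lower (48.1% called, next to 33.9% of all genes). The ratio of Hspa8 to Hspa5 was 0.0311, 0.0315 and 0.0417 in control and 0.0667, 0.0577 and 0.0894 in Ptf1a cKO, with no overlap. Immediate early genes, which respond to handling and injury of tissue, were called in 8 of 13 (61.5%, next to 33.9% of all genes), 6 of them higher. Their part in the chaperone results was not tested.

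The authors' counts left out reads that aligned to several places, and some chaperone genes have many processed copies in the genome. Among all stretches of 50 bases, the read length, in the transcripts of a gene, the share that also occurs in another annotated gene was 50.1% for Hspb1, 47.5% for Hsp90aa1, 42.1% for Hspd1, 39.4% for Hspa8 and 22.8% for Hspe1, so the levels of these genes are uncertain. It was 3.44% for Hsp90ab1, 2.81% for Hspa9 and 0% for Hsph1. In all, 13 of the 63 genes shared at least 10%, 4 of them called, and the effect on the differences was not tested. Without these 13, 7 genes were higher and 10 lower.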

How the data were processed

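The deposited table was made by the authors with TopHat2 2.0.4, Bowtie 0.12.7.0, SAMtools 0.1.18.0 and HTSeq 0.6.0 on mm9 (per the labels), from single-end reads of 50 bases, and scaled with edgeR's TMM method (per the paper's methods). The strand setting and gene annotation are not given in the sources used here. The authors deposited a signal per gene symbol and library, that is, read counts after normalization, with decimals. The values did not fall on whole reads, and models of counts were therefore not used. The table does not show sequencing depth, for which the paper's methods give the uniquely aligned reads of each library. No counting intervals are given, and precision rests on 3 mice per group. Entries that name no gene (75.7% to 82.6% of a library's normalized counts, mostly alignments that were not unique) were left out of totals and tests.

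Values were divided by 13.6393 and log2(value + 0.25) was fitted with limma 3.58.1 (R 4.3.3; a linear model with no covariate, empirical Bayes with a trend in the variance) over all 10245 genes. A minimum mean of 0.25 removed 0 genes. P-values are two-sided with Benjamini-Hochberg adjustment over all genes, and an adjusted p under 0.05 was the threshold. Fold changes on this scale understate those of low genes. Sequence sharing was read from GENCODE vM21 transcripts and promoter windows from RefSeq with Python 3.11.15. Genes were named by a list of 20 symbols of general interest plus the 8 largest rises and 8 largest falls past the threshold with groups apart. The 63 genes, the other lists and this rule were chosen with earlier results of these data known. Other pseudocounts, filters, scalings, variance models, covariates, thresholds and each library left out in turn were tried. Replicates are separate mice. Some genes of the lists are counted but not reported by name here.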

Additional observations from a re-analysis of the deposited data

How the results depend on the processing

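Other pseudocounts (0.05 and 1), no filter, a mean of at least 5, the median of ratios, limma with no trend or with its robust option, and sex as a covariate kept the numbers of higher (7 to 9) and lower (10 to 12) chaperone genes within 1.5 times those reported. In limma with no trend, Hspb8 (adjusted p = 0.0549) and Cct7 (adjusted p = 0.0540) did not pass. With the same 75th percentile in every library Cct7 did not pass (adjusted p = 0.0531), and the median log2 fold change was 0.0093. With the same total it was 1.42, 61 genes were higher and 0 lower, and the 12 lower genes moved above 0 (Hspa9 0.92, Hspb1 0.24, Hspb8 0.83, Hspd1 0.95, Dnajc6 0.65, Dnajc21 0.83, Dnajc28 0.795, Bag5 0.92, Cct5 0.99, Cct7 1.14, Dnajc11 1.04, Dnajc12 0.94), because this scaling moved the median of all genes to 1.48. Of these 12, Hspb1 (adjusted p = 0.5625) and Dnajc6 (adjusted p = 0.112) did not pass there. With the same total reached without digestive enzymes, the median was 0.14, 16 genes were higher and 3 lower, and Hspb1, Hspa9 and Dnajc28 were the 3. At an adjusted p under 0.01, 6 were higher and 2 lower. Leaving out 1 library at a time gave 6 to 10 higher genes, 3 to 11 lower genes (3 without control 1, 7 without control 2, 5 without cKO 3) and a median from -0.055 to -0.031, and 9 of the 21 called genes passed in all 6 fits. The libraries share only a number between the groups: same-numbered deviations correlated at 0.0391, 0.134 and 0.144. Differently numbered ones correlated at -0.202 to 0.0829, and these values do not settle whether the mice were paired. With the replicate number as a block, 10 genes were higher and 10 lower, and Dnajc6 (adjusted p = 0.0530) and Cct7 (adjusted p = 0.0563) did not pass. Without the 13 genes that share at least 10% of their sequence, a choice made after seeing the data, 7 were higher and 10 lower with a median of -0.051. Models of read counts were not run, since whole reads could not be recovered. The paper gives the uniquely aligned reads of each library, but the normalized values do not show how many reads a gene had. Low genes such as Dnajc6, Hspb1 and Dnajc9 therefore rest on the spread between mice alone.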
